A study of Homo sapiens with 6 samples.

Results

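Messenger RNA of 39 genes that drive cells from G2 through mitosis, or that build the kinetochore, was followed in 786-O cells with and without targeting of PLOD2. The genes were named in advance by symbol and were not chosen by a value in these libraries, although earlier results of the same data were known when the list was drawn up. All 39 symbols matched 1 row each among the 58395 genes of the table, and all 39 passed the filter of a mean of at least 1 FPKM (fragments per kilobase of gene, scaled to the mapped fragments of a library) that 10469 genes passed. The 786-O line comes from a human clear cell renal carcinoma without functional VHL. The control group, labelled sgControl, held 3 libraries from cells given a control guide, and the other, labelled sgPLOD2, held 3 libraries from cells in which PLOD2, the gene of lysyl hydroxylase 2, had been knocked out with CRISPR/Cas9. The labels give 1 growth protocol for all 6 libraries, and neither the guide sequences nor a choice between pooled cells and single clones is given in the labels. Whether a replicate was a culture of its own is not in the labels either, so each p-value is set against the spread of these 6 libraries alone, and that spread may be technical.

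Entry into mitosis is driven by CDK1 bound to cyclin A or cyclin B, which is switched on by CDC25 phosphatases and reinforced by the Polo and Aurora kinases. Kinetochores assemble on centromeres marked by the histone variant CENPA, bind spindle microtubules through the NDC80 complex, and hold back anaphase through the spindle checkpoint until every chromosome is attached. The anaphase-promoting complex then tags securin and cyclin B for destruction. Most of these genes are transcribed in G2 and M under FOXM1 and MYBL2, which act with the MuvB complex, so in proliferating cell lines such as 786-O their mRNA usually follows the share of dividing cells. In bulk RNA, a larger share of cells in G2 or M and more RNA per cell cannot be told apart.

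PLOD2 itself had 26.8, 25.7 and 21.5 FPKM in sgControl against 5.98, 10.1 and 6.64 FPKM in sgPLOD2 (log2 fold change -1.61, limma adjusted p = 0.000509, and p = 0.1 in the 2-sided exact permutation test, the smallest that 3 libraries against 3 allow). FPKM summed to between 229485 and 268612 per library, and the absolute read depth is unknown. The mitochondrial share of FPKM was 12.9% for replicate 1 of sgControl and at most 7.5% elsewhere. Among 8 markers of clear cell renal carcinoma lines, 7 reached 1 FPKM in each group, while CA9 was listed at 0 in sgControl and stayed under 1 FPKM in sgPLOD2. At a limma adjusted p under 0.05, CA12, VIM and PAX2 were lower in sgPLOD2 (log2 fold changes -1.63, -0.36 and -0.33) and NNMT was higher (0.35). PAX8, KRT8 and KRT18 did not pass. Of 7 fibroblast markers, COL1A1 alone passed 1 FPKM, and in sgPLOD2 alone. The summed level of the fibroblast list was 0.710 to 0.984 FPKM in sgControl against 3.38 to 3.69 FPKM in sgPLOD2, and DCN was listed at 0 in every library. No endothelial marker reached 1 FPKM (sums of at most 0.161 FPKM, with VWF at 0). Of 5 leukocyte markers, CD68 alone did, with sums of 11.5 to 18.3 FPKM in sgControl against 5.53 to 6.54 FPKM in sgPLOD2, and CD3E and MS4A1 were listed at 0 throughout. The groups differed well beyond PLOD2. HIF1A averaged 0.420 FPKM in sgControl against 37.7 FPKM with PLOD2 targeted, and the median log2 fold change of a chromosome's genes ranged from -0.25 on chromosome 16 to 0.54 on chromosome 14. An effect of PLOD2 loss and another difference between the 2 cell populations therefore cannot be told apart in what follows.

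All 4 genes of chromosome structure, 3 of 4 spindle checkpoint genes, 5 of 8 spindle genes and 3 of 6 centromere and kinetochore genes were called higher in sgPLOD2. Of the 39 genes, 21 rose and 3 fell at a limma adjusted p under 0.05, and 15 were not called. CENPE, among the 21, passed the filter only through its sgPLOD2 libraries. Over all 10469 tested genes the same threshold called 29.5% higher and 23.5% lower (3084 and 2456 genes). With FPKM rescaled to the same total per library, which is TPM, it called 3673 and 1827. Among the fewer genes of at least 5 FPKM it called 1361 and 1649. The median log2 fold change of the 39 genes, on the log2(FPKM + 1) scale used throughout, was 0.41, against 0.06 for all tested genes. Every sgPLOD2 library lay above every sgControl library in 22 of the 39 (34.7% of all tested genes) and below in 4 (28% of all tested genes). The proliferation marker MKI67, the spindle protein genes DLGAP5 and CKAP5 and the topoisomerase gene TOP2A had the largest rises, with log2 fold changes of 1.71, 1.36, 1.32 and 1.31. DLGAP5 lies on chromosome 14, whose median was 0.54, and was at 0.81 with chromosome medians removed, below NDC80 at 1.01 and CCNA2 at 0.93. The ubiquitin-conjugating enzyme gene UBE2C, the transcription factor gene MYBL2 and the Polo-like kinase gene PLK1 fell, by 0.92, 0.66 and 0.53. The summed FPKM of the 39 genes was 1525, 1318 and 1337 in sgControl and 1447, 1467 and 1442 in sgPLOD2. Abundant genes weigh most in such a sum, and UBE2C and MYBL2, among the most abundant, fell. The median gene, by contrast, had 13.3, 13.1 and 12.0 FPKM in sgControl against 21.8, 23.2 and 22.5 FPKM in sgPLOD2.

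**Figure D1:**
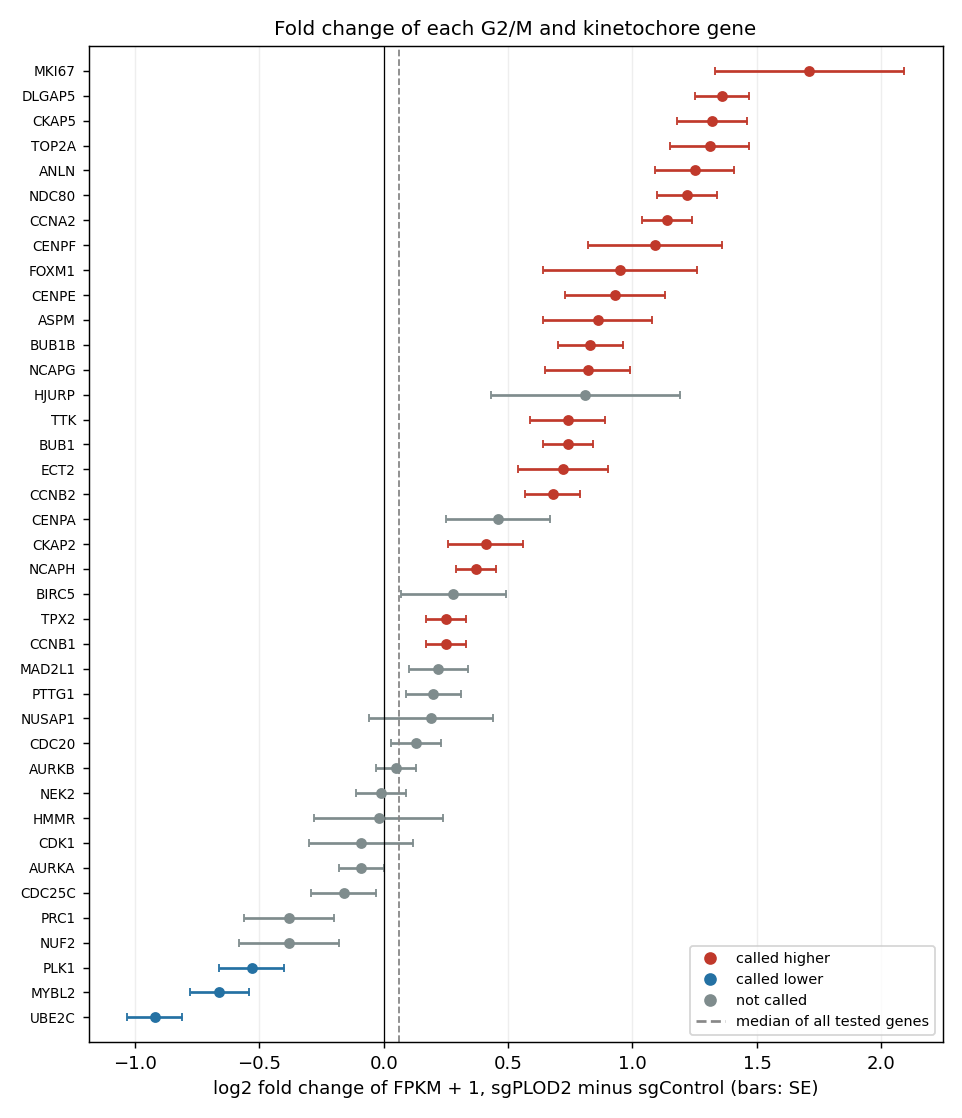
Log2 fold change of FPKM + 1, sgPLOD2 minus sgControl, for each of the 39 genes, ordered by size, with bars of 1 SE from limma and colours for the call. The 21 genes called higher run from 0.25 (CCNB1 and TPX2) to 1.71 (MKI67), the 3 called lower lie at -0.53 or below, and the dashed line marks the median of all tested genes at 0.06.

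Promoters of the genes at both ends of this order are shown because G2/M genes are known to share 2 promoter elements, the cell cycle homology region (CHR), which the MuvB complex binds, and the CCAAT box, which NF-Y binds. RefSeq promoter windows (GRCh38.p14, 250 bases before to 50 after the start) matched 33 of the 39 genes, without FOXM1, AURKA, TTK, UBE2C, TPX2 and BIRC5. The stretches below are 150 bases, 5′ to 3′ on the gene's strand, from chr10:128126424-128126573 (MKI67, minus), chr14:55191679-55191828 (DLGAP5, minus), chr11:46846309-46846458 (CKAP5, minus), chr20:43666869-43667018 (MYBL2, plus) and chr16:23678672-23678821 (PLK1, plus). Each ends before any protein-coding exon of the gene that GENCODE 29 places in the 250 bases before the RefSeq start. Transcripts beginning further upstream were not searched for. The listed start of PLK1, at base 23677656, lies upstream of its stretch, which is thus inside the annotated gene. Capitals mark TTTGAA and CCAAT on either strand (TTCAAA and ATTGG on the other).
MKI67, higher: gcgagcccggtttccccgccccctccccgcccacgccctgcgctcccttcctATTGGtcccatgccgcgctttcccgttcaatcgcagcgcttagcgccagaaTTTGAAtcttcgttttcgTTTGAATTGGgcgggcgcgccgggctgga
DLGAP5, higher: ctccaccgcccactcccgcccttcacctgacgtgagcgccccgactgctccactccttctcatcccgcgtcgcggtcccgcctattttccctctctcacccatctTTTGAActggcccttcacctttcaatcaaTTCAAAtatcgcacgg
CKAP5, higher: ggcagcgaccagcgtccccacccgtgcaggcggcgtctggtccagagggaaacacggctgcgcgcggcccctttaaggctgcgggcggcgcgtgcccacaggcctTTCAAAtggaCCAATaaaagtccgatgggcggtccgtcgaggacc
MYBL2, lower: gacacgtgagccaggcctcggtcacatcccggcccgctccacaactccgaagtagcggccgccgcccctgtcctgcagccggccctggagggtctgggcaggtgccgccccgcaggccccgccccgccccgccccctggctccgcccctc
PLK1, lower: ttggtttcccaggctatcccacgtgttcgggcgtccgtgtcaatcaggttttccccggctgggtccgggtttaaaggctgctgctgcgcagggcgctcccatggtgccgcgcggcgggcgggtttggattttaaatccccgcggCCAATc

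The stretch of MKI67 held 4 matches, of which the last TTTGAA and the ATTGG after it share 1 base, those of DLGAP5 and CKAP5 held 2 each, that of PLK1 held 1 and that of MYBL2 held 0. Beyond the stretches shown, PLK1 had a further TTTGAA beginning 29 bases before its RefSeq start. DLGAP5 had CCAAT beginning 87 and 22 bases before its start, and TTTGAA from base 4 after it. CKAP5 had CCAAT beginning 30 bases before its start, cut by the end of its stretch, and TTCAAA from base 18 after it. Over the full windows, TTTGAA on either strand was found in 22 of 33 promoters of these genes (66.7%), against 15.2% of 35116 windows of the same length, and CCAAT in 24 of 33 (72.7%), against 34.6%. The promoters of genes that rose held TTTGAA in 12 of 18 and those of genes not called in 9 of 13. A match is a description of letters, not a binding site, and a window without one says only that these letters are not in it.

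Of the 5 cyclins and genes of CDK1 control, the 3 cyclins rose and the other 2 were not called. CCNA2, cyclin A2 of S and G2 phase, had 24.7, 27.1 and 23.15 FPKM in sgControl against 57.6, 59.6 and 51.5 FPKM in sgPLOD2. The lowest sgPLOD2 library was thus well above the highest sgControl library, and the log2 fold change was 1.14 ± 0.10 (SE, limma adjusted p = 0.000141). CCNB2, a B-type cyclin, rose from 20.6 ± 2.67 FPKM in sgControl to 33.4 ± 2.06 FPKM in sgPLOD2 (SD, n = 3 each), a log2 fold change of 0.68. CCNB1, the main mitotic cyclin, had 52.9, 53.6 and 54.0 FPKM in sgControl against 67.6, 63.2 and 60.3 FPKM in sgPLOD2. Its groups did not overlap, but the log2 fold change was 0.25 and the limma adjusted p 0.0315, and the call was lost without sgControl replicate 2 (0.0684) or 3 (0.0819) and without sgPLOD2 replicate 1 (0.110) or 2 (0.0839). With chromosome medians removed CCNB1 was at 0.11 (limma adjusted p = 0.255), with median-of-ratios scaling at 0.18 (0.086), and under TPM and quantile scaling at 0.38. CDK1, the kinase that these cyclins activate, had 19.9, 12.6 and 10.3 FPKM against 13.2, 13.4 and 12.1 FPKM, so that the sgControl libraries spanned those of sgPLOD2 (limma adjusted p = 0.755). CDC25C, a phosphatase that activates CDK1, had 6.47 ± 0.53 and 5.72 ± 1.04 FPKM and was not called. The genes of the other CDC25 phosphatases, counted below with entry control, were called higher (log2 fold changes 0.85 and 0.73).

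**Figure D2:**
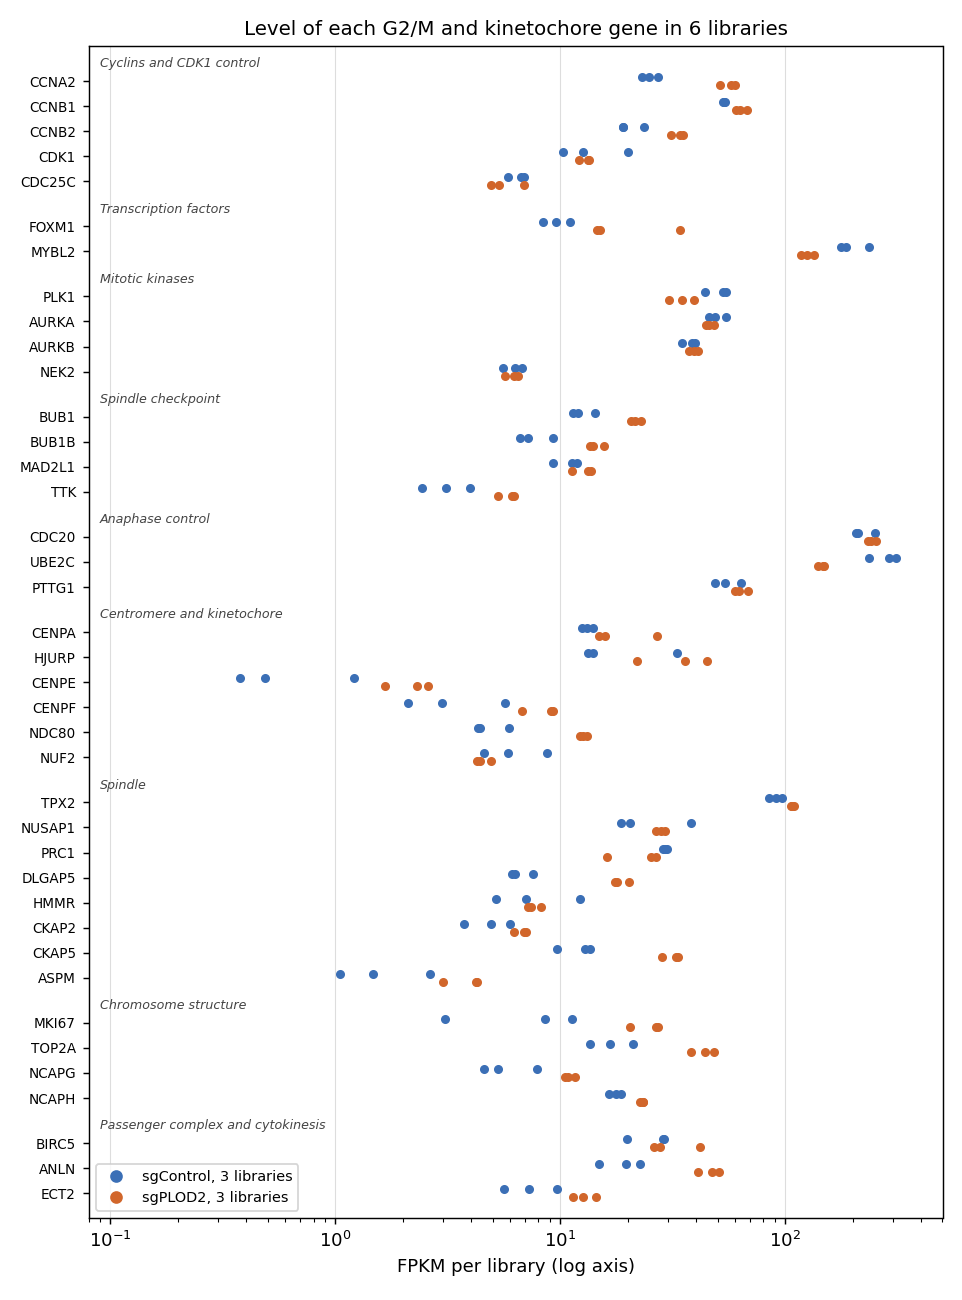
FPKM of each of the 39 genes in each library on a log axis, grouped by role, with sgControl in blue and sgPLOD2 in orange. Levels run from 0.377 FPKM (CENPE, sgControl replicate 3) to 310.5 FPKM (UBE2C, sgControl replicate 1), and the colours do not overlap for MKI67, DLGAP5, CKAP5, TOP2A, NDC80 and CCNA2, among others.

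The 2 transcription factors that drive the programme went in opposite directions. FOXM1, the forkhead factor of G2 genes, had 8.37, 11.02 and 9.58 FPKM in sgControl against 34.0, 14.5 and 15 FPKM in sgPLOD2. Replicate 1 of sgPLOD2 was far above the other libraries, and without it the log2 fold change went from 0.95 to 0.57 (limma adjusted p = 0.0345 and 0.0165). The call was lost without sgControl replicate 1 (0.0784) or 3 (0.0740) and with no filter on low values (0.1). MYBL2, or B-MYB, had 236.6, 177.8 and 187.0 FPKM in sgControl against 125.1, 117.9 and 133.9 FPKM in sgPLOD2, a log2 fold change of -0.66 (limma adjusted p = 0.00401) with no overlap between groups. After correction for GC content and length it was -0.36 (0.0479). Exons of FOXM1 overlap those of ITFG2 on the other strand (mean 1.64 FPKM), and with no strand setting stated their reads cannot be told apart. The same holds for CCNA2 with EXOSC9 (5.12 FPKM) and CDC25C with FAM53C (8.10 FPKM), while CENPA overlaps SLC35F6 (7.08 FPKM) and PRC1 overlaps AC068831.6 (3.78 FPKM) on the same strand, so the values of these 5 genes are uncertain.

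Of the 4 mitotic kinases outside the spindle checkpoint, whose kinase genes are described below, none was called higher and 1 fell. PLK1, which acts at centrosomes and kinetochores and in cytokinesis, had 53.0, 44.1 and 54.7 FPKM in sgControl against 30.3, 39.4 and 34.75 FPKM in sgPLOD2. All 3 sgPLOD2 libraries were below all 3 of sgControl, with a log2 fold change of -0.53 ± 0.13 (SE, limma adjusted p = 0.0112). With each chromosome's median removed it was -0.28 (0.108). AURKA, of the spindle poles, had 49.6 ± 4.51 and 46.3 ± 1.88 FPKM, AURKB, of the chromosomal passenger complex, 37.7 ± 2.502 and 39.1 ± 1.80 FPKM, and NEK2, of centrosome separation, 6.20 ± 0.61 and 6.14 ± 0.43 FPKM (SD, n = 3 each). Their log2 fold changes lay between -0.09 and 0.05, and limma adjusted p between 0.410 and 0.928. AURKB was called higher after correction for a trend with GC content and length (0.34, limma adjusted p = 0.0151).

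Of the 4 spindle checkpoint genes, 3 rose. BUB1, a kinetochore kinase, had 11.4, 14.3 and 12.0 FPKM in sgControl against 21.4, 22.9 and 20.6 FPKM in sgPLOD2 (log2 fold change 0.74 ± 0.10, limma adjusted p = 0.00116). BUB1B, which encodes BUBR1 of the mitotic checkpoint complex, had 6.62, 9.27 and 7.18 FPKM against 13.9, 15.6 and 13.5 FPKM (log2 fold change 0.83). For both genes the groups were far apart against the spread within them. TTK, the MPS1 kinase that starts checkpoint signalling, rose from 3.17 ± 0.78 to 5.88 ± 0.51 FPKM (log2 fold change 0.74, or 0.39 with chromosome medians removed, limma adjusted p = 0.0627). MAD2L1, whose product MAD2 binds CDC20, had 10.8 ± 1.35 and 12.8 ± 1.31 FPKM and was not called (limma adjusted p = 0.157).

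Of the 3 genes of anaphase control, 1 fell and 2 were not called. CDC20, the activator of the anaphase-promoting complex and one of the most abundant of the 39 mRNAs, had 250.7, 206.2 and 209.6 FPKM in sgControl against 241.7, 234.4 and 252.4 FPKM in sgPLOD2. The groups overlapped through sgControl replicate 1, and CDC20 was not called (log2 fold change 0.13, limma adjusted p = 0.296), though it was called higher without that library (0.22, 0.0363), under TPM (0.26, 0.0295) and with quantile normalization (0.41, 0.00796). UBE2C, the ubiquitin-conjugating enzyme that feeds the same complex, had 310.5, 236.5 and 290.3 FPKM against 149.2, 140.0 and 147.9 FPKM. Its sgPLOD2 level was 52.2% of that in sgControl (log2 fold change -0.92 ± 0.11, limma adjusted p = 0.000719). PTTG1, or securin, a substrate of the complex, was at 55.4 ± 7.41 FPKM in sgControl against 63.6 ± 4.29 FPKM in sgPLOD2. PTTG1 was called higher only without sgControl replicate 1 (limma adjusted p = 0.0292), with TPM scaling (0.0184) or with quantile normalization (0.0277).

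Of the 6 centromere and kinetochore genes, 3 rose and 3 were not called. NDC80 had 5.93, 4.297 and 4.398 FPKM in sgControl against 12.6, 13.1 and 12.2 FPKM in sgPLOD2 (log2 fold change 1.22 ± 0.12, limma adjusted p = 0.000287). NUF2, which pairs with NDC80 in the microtubule-binding arm of the same complex, had 8.75, 5.84 and 4.58 FPKM against 4.396, 4.92 and 4.29 FPKM. NUF2 was thus higher in sgControl replicate 1 than in any other library, and it was not called (log2 fold change -0.38, limma adjusted p = 0.141). Without sgControl replicate 3 it was called lower (-0.56, 0.0360), and without sgControl replicate 1 the value was -0.16 (0.273). CENPF, a large outer kinetochore protein, rose from 3.60 ± 1.87 to 8.37 ± 1.39 FPKM (log2 fold change 1.09, limma adjusted p = 0.0135, or 0.0522 without sgPLOD2 replicate 3), and CENPE, the kinetochore motor, from 0.692 ± 0.453 to 2.18 ± 0.46 FPKM (0.93, 0.00694). The log2 fold change of CENPE was 1.65 with a pseudocount of 0.1 and 1.57 under TPM. Its sgControl mean was under 1 FPKM, so CENPE passed the filter only through its sgPLOD2 libraries. The call of CENPE is thus no support of its own for a rise of these genes. CENPA had 12.5, 13.1 and 13.9 FPKM in sgControl against 15.7, 26.8 and 14.8 FPKM in sgPLOD2, higher in every library but not called (limma adjusted p = 0.105), with sgPLOD2 replicate 2 far above the others. Its chaperone HJURP had 13.3, 32.9 and 13.9 FPKM against 21.8, 44.7 and 35.9 FPKM. The replicate 2 libraries were highest in both groups, and HJURP was not called (log2 fold change 0.81, limma adjusted p = 0.114), but it was without sgControl replicate 2 (1.21, 0.0127).

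Spindle genes were split. DLGAP5, or HURP, which stabilises kinetochore fibres, had 7.54, 6.28 and 6.08 FPKM in sgControl against 17.5, 20.2 and 17.8 FPKM in sgPLOD2 (log2 fold change 1.36 ± 0.11, limma adjusted p = 0.000103, the smallest of the 39). CKAP5, or chTOG, a microtubule polymerase, had 13.5, 12.9 and 9.70 FPKM against 28.4, 33.5 and 32.6 FPKM (1.32 ± 0.14, 0.000329). In both genes every sgPLOD2 library exceeded every sgControl library, and with chromosome medians removed DLGAP5 was at 0.81 (limma adjusted p = 0.00102). ASPM, of the spindle poles, rose from 1.72 ± 0.81 to 3.84 ± 0.73 FPKM (SD, n = 3 each), with a limma adjusted p of 0.0143 that became 0.0525 without sgPLOD2 replicate 2 and 0.0545 without replicate 3. TPX2, which activates Aurora A and nucleates microtubules, had 84.4, 96.7 and 91.1 FPKM against 106.6, 109.5 and 106.8 FPKM, a small difference (log2 fold change 0.25, limma adjusted p = 0.0374) that was not called without any 1 library except sgControl replicate 2 (0.0549 to 0.112). TPX2 was at 0.38 under TPM and quantile scaling, and was not called with median-of-ratios scaling (0.0994). CKAP2 had 4.86 ± 1.12 and 6.72 ± 0.41 FPKM and a limma adjusted p of 0.0488, which rose to between 0.0781 and 0.131 without any 1 library except sgControl replicate 1. Its log2 fold change was 0.41, or 0.27 without sgControl replicate 3. HMMR and NUSAP1, both microtubule-associated, and PRC1, which bundles the central spindle, were not called. NUSAP1 had 38.2, 20.3 and 18.6 FPKM in sgControl against 27.9, 29.2 and 26.6 FPKM in sgPLOD2, and it was called higher without sgControl replicate 1 (0.50, limma adjusted p = 0.00333). PRC1 had 28.6, 29.3 and 29.7 FPKM against 26.5, 16.1 and 25.3 FPKM, lower in every sgPLOD2 library and lowest in replicate 2 (limma adjusted p = 0.109), and it was called lower after the GC and length correction (0.0459) or with chromosome medians removed (0.0494).

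All 4 genes of chromosome structure rose. MKI67, the coat protein of mitotic chromosomes, had 3.08, 11.3 and 8.55 FPKM in sgControl against 20.5, 26.7 and 27.1 FPKM in sgPLOD2 (log2 fold change 1.71 ± 0.38, limma adjusted p = 0.00816). Replicate 1 of sgControl was the lowest of the 6 libraries, and without it the log2 fold change was 1.24 (0.00134). TOP2A, which untangles sister chromatids, had 21.0, 16.6 and 13.5 FPKM against 37.9, 48.0 and 43.9 FPKM (1.31 ± 0.16, 0.000767). The condensin I subunit genes NCAPG and NCAPH rose from 5.91 ± 1.72 to 11 ± 0.61 FPKM and from 17.6 ± 1.07 to 23.0 ± 0.42 FPKM (SD, n = 3 each), with log2 fold changes of 0.82 and 0.37. With chromosome medians removed NCAPH was at 0.21 (limma adjusted p = 0.0671).

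Of the passenger and cytokinesis genes, ANLN, the scaffold of the contractile ring, had 22.7, 19.5 and 14.9 FPKM in sgControl against 40.8, 50.7 and 47.1 FPKM in sgPLOD2 (log2 fold change 1.25 ± 0.16, limma adjusted p = 0.000793). ECT2, the exchange factor that activates RhoA at the cleavage site, rose from 7.502 ± 2.06 to 12.8 ± 1.5 FPKM (0.72, 0.0134), and its call was lost without sgPLOD2 replicate 2 (0.0516), with chromosome medians removed (0.116) and after the GC and length correction (0.0515). BIRC5, or survivin, of the passenger complex, had 19.7, 28.7 and 28.96 FPKM against 41.6, 26.1 and 27.8 FPKM. Replicate 1 was the lowest library of sgControl and the highest of sgPLOD2, and BIRC5 was not called (limma adjusted p = 0.294).

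**Figure D3:**
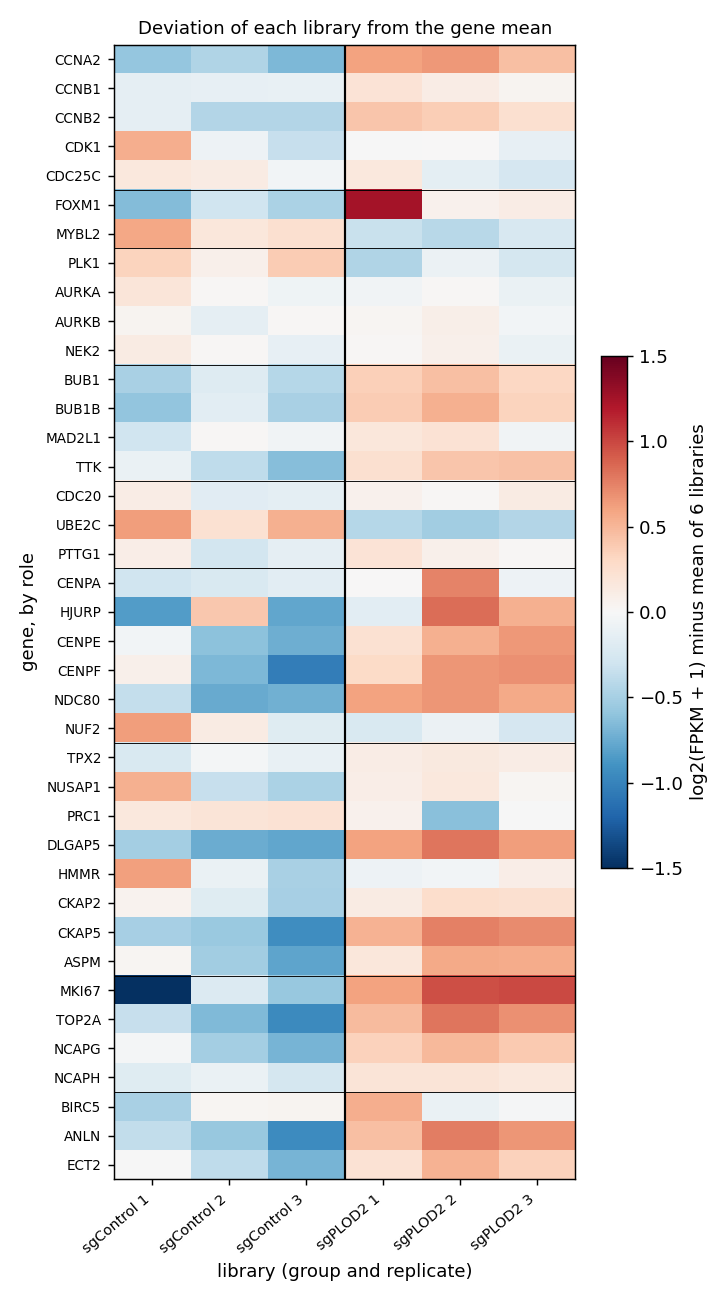
Log2(FPKM + 1) of each library minus the mean of the 6 libraries, for each gene by role, red above and blue below the mean (the colour scale ends at 1.5). The change of colour at the vertical line marks the genes that differ by group, and single cells stand out for FOXM1 in sgPLOD2 replicate 1, for MKI67 in sgControl replicate 1 and for HJURP in the replicate 2 libraries.

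Libraries within a group differed in these genes. Replicate 1 of sgControl, the library with 12.9% mitochondrial FPKM, was the highest of its group in 25 of the 39 genes and the lowest in 11, whereas over all tested genes it was highest in 39.3% and lowest in 40.6%. It stood above the mean of the other 2 sgControl libraries by 0.94 for NUSAP1, 0.93 for CENPF, 0.91 for HMMR and 0.75 for CDK1 on the log2 scale, and below it by 1.41 for MKI67 (a difference of -1.41) and by 0.65 for HJURP (-0.65). The part of the mitochondrial share in this was not tested. Without that library, 22 of the 39 genes were higher and 3 lower, beside 3228 and 2572 of all 10469 tested genes. Replicate 3 of sgControl was the lowest of its group in 20 of the 39, against 30.2% of all tested genes. Replicate 2 of sgPLOD2 was the highest of its group in 23 of the 39, against 39.8%.

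Of 8 pairs of genes whose products work together, 5 had FPKM ratios that did not overlap between groups, and none passed a test. Of all tested single genes, 34.7% lay wholly higher and 28% wholly lower in sgPLOD2. No such share was taken over other pairs, so the count of 5 is not a result about these pairs. For these pairs, chosen after the values had been seen, the FPKM of one was divided by that of the other in each library. NDC80 over NUF2 gave 0.678, 0.735 and 0.960 in sgControl and 2.86, 2.67 and 2.84 in sgPLOD2, so the order of the 2 subunit genes changed between groups. CCNA2 over CDK1 gave 1.24, 2.15 and 2.24 against 4.35, 4.44 and 4.24. NCAPG over NCAPH rose less, from 0.335 ± 0.095 to 0.479 ± 0.026, and TPX2 over AURKA went from 1.84 ± 0.26 to 2.33 ± 0.06 (SD, n = 3 each). BUB1 over BUB1B differed little, at 1.65 ± 0.09 and 1.51 ± 0.04. CENPA over HJURP, CCNB1 over CDK1 and AURKB over BIRC5 overlapped between groups. The 5 pairs without overlap each had p = 0.1 in a 2-sided exact permutation test, the smallest the design allows (0.16 after Benjamini-Hochberg adjustment over the 8), so none could pass a threshold of 0.05.

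**Figure D4:**
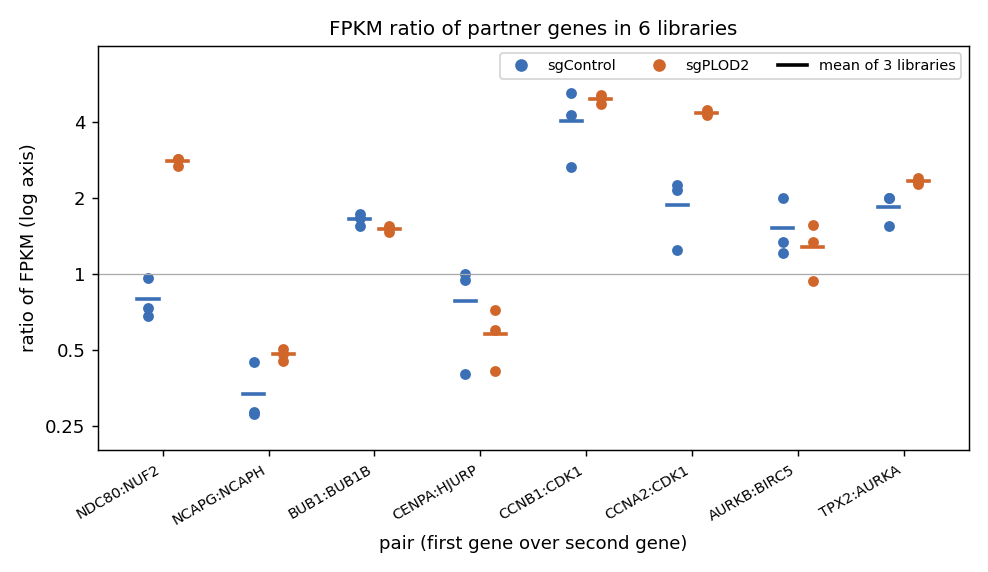
Ratio of the FPKM of 2 partner genes in each library on a log axis, sgControl in blue and sgPLOD2 in orange, with a bar at the mean of 3 libraries. NDC80 over NUF2 lies below 1 in all 3 sgControl libraries and at 2.67 or above in sgPLOD2, and CCNA2 over CDK1 is the other pair with widely separate groups.

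The genes that rose had longer transcripts of lower GC content than those that fell. The longest annotated transcript had a median of 3725 bases and 40.8% GC in the 21 genes that rose, 2137 bases and 47.6% in the 15 not called, and 2704 bases and 57.1% in the 3 that fell. Across the 39 genes, log2 fold change went with log2 length (Pearson r = 0.60, Spearman rho = 0.58) and against GC content (r = -0.40, rho = -0.33). Over 10457 tested genes with both values it did so as well (r = 0.26 and rho = 0.33 with length, r = -0.30 and rho = -0.35 with GC). Genes share their libraries and are not independent replicates, so no p is given. At a limit of 5000 bases, set after the values had been seen, 6 of 7 longer genes among the 39 rose and MAD2L1 did not pass the test, against 15 of 32 shorter ones. Of all tested genes of at least 5000 bases 48.3% rose, and of shorter ones 23.3%. The trend over all genes gave 0.52 for CENPF, 0.49 for MKI67, 0.47 for ASPM and 0.40 for CKAP5 on the log2 scale, but 0.02 for NDC80, 0.10 for CCNA2 and 0.08 for DLGAP5. For the 3 genes that fell it gave -0.30 (MYBL2), -0.09 (PLK1) and -0.09 (UBE2C). With this trend removed, 16 of the 39 were higher and 4 lower, beside 2602 and 2060 of the 10457 genes. CENPF (0.57, limma adjusted p = 0.128), ASPM (0.40, 0.179), CENPE (0.57, 0.0513), TPX2 (0.12, 0.254), CKAP2, ECT2 and CCNB1 lost their calls, whereas CDC20 (0.47, 0.00865) and AURKB gained one.

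**Figure D5:**
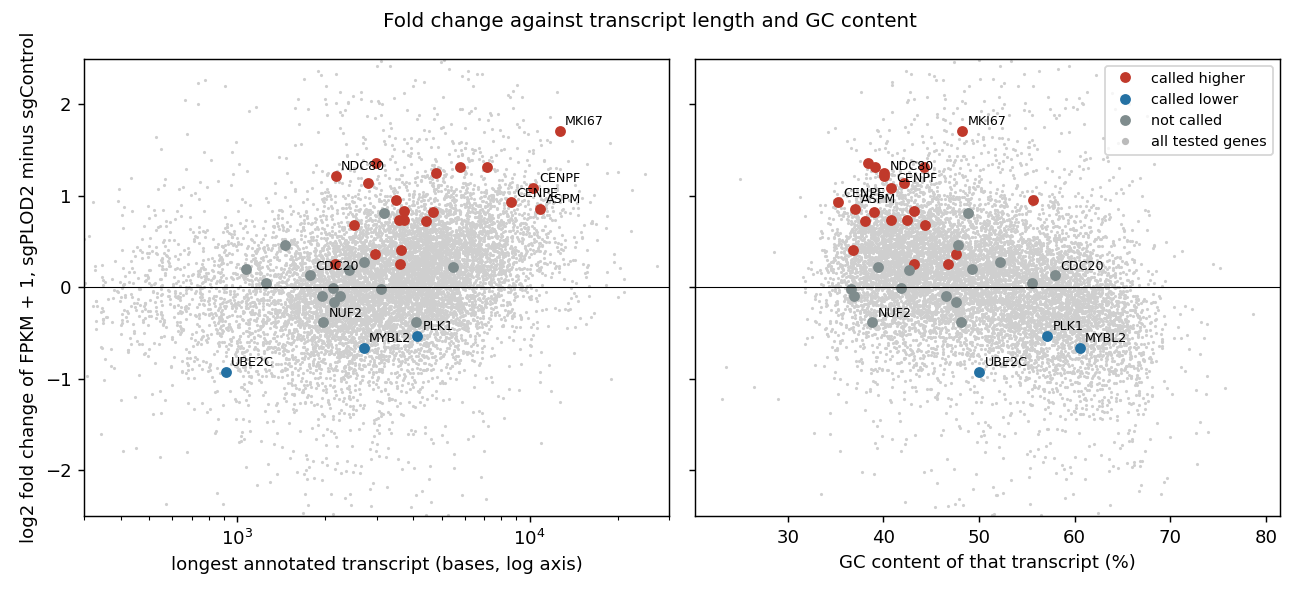
Log2 fold change against the length of the longest annotated transcript (left, log axis) and its GC content (right), with the 39 genes in colour by call and all tested genes in grey (the vertical axis ends at 2.5 on either side). The longest genes, MKI67, ASPM, CENPF, CENPE and CKAP5, lie above 0. Of the genes that fell, MYBL2 and PLK1 lie at the GC-rich end and UBE2C at 50% GC. CDC20, at 57.9% GC, was not called, and FOXM1, at 55.6%, was called higher.

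The authors' deposited table, which holds their own comparison of the same libraries, called 17 of the 39 higher and 4 lower at an adjusted p under 0.05, where it called 18.5% of the 22870 genes with such a value higher and 17% lower. All 17 were among the 21 called here, without CCNB1, TPX2, CKAP2 and NCAPH. Besides UBE2C, MYBL2 and PLK1 the authors' deposited table had NUF2 lower, at a log2 fold change of -0.59 (adjusted p = 0.0367). For CENPE, weak in FPKM, it gave 1.57, against 0.93 here, where adding 1 to FPKM shrinks the change of weakly expressed genes.

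Other genes of the same machinery came from lists written with earlier results known, and their counts stand beside the 29.5% higher and 23.5% lower of all tested genes. A few called genes of these lists averaged under 1 FPKM in 1 group and passed the filter only through the other group. Of 16 tested condensin and cohesin genes, 14 rose and 1 fell, with a median of 0.57. SMC4, the core condensin ATPase, rose from 4.95 ± 0.72 to 11.1 ± 1.22 FPKM and the cohesin gene STAG2 from 1.24 ± 0.13 to 2.70 ± 0.31 FPKM (SD, n = 3 each). After the GC and length correction STAG2 went from 0.73 to 0.45, and under TPM to 1.11. The count of rises was 5 after that correction, where 2602 of 10457 genes rose. It was 8 and 9 without sgPLOD2 replicate 2 or 3 (2307 and 2569 over all tested genes). Most of the 16 have a longest transcript of at least 5000 bases, a class in which 48.3% of tested genes rose. Of 34 tested kinetochore and centromere genes outside the 39, 13 rose and 4 fell. ZW10, which recruits dynein to kinetochores, and CENPI, of the inner kinetochore, had log2 fold changes of 1.00 and 0.85. The rises numbered 8 without sgPLOD2 replicate 1 and 7 without replicate 2 (2589 and 2307 over all tested genes). Of 16 tested subunits and partners of the anaphase-promoting complex, 4 rose and 6 fell, and its 2 smallest adjusted p went to subunits that moved apart. ANAPC1, the large scaffold, rose from 2.92 ± 0.45 to 7.54 ± 0.48 FPKM and ANAPC2, the cullin, fell from 11.9 ± 1.02 to 4.27 ± 0.27 FPKM. The log2 fold change of ANAPC1 was 1.13, or 0.69 after the GC and length correction.

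Among 21 genes that control entry into mitosis, 6 rose and 5 fell, shares close to the 29.5% and 23.5% of all tested genes. MELK and CDCA2 rose, with log2 fold changes of 0.68 and 0.84. CDKN1A, the CDK inhibitor p21 that lets the MuvB complex repress G2 genes, had 27.5, 35.1 and 77.3 FPKM in sgControl against 9.89, 8.37 and 10.6 FPKM in sgPLOD2 (log2 fold change -2.03, limma adjusted p = 0.00262). Of 17 MuvB, DREAM and E2F genes, 7 rose and 4 fell. E2F1, an activator of S phase genes, fell from 43.3 ± 3.00 to 25.5 ± 1.37 FPKM (SD, n = 3 each) and E2F4, the repressor E2F of DREAM, from 26.0 ± 2.20 to 14.2 ± 1.67 FPKM. After the GC and length correction their log2 fold changes went from -0.74 to -0.35 and from -0.83 to -0.55. The falls of that list numbered 2 without sgPLOD2 replicate 1 or 3 (2069 and 1974 over all tested genes).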

How the data were processed

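RNA was sequenced from 3 sgControl and 3 sgPLOD2 libraries. Per the labels' protocols RNA was extracted with Trizol and libraries followed an Illumina protocol. The submitters' processing notes name CASAVA, HISAT2 2.1.0, StringTie 1.3.4 and GRCh38, without roles. Which tool counted reads, with what strand setting and annotation, is not given in the sources used here. Per the file headers, the deposited table gives FPKM per gene and library by the authors, and the authors' own comparison: log2 fold change, its standard error, a mean normalized count, the test's score, and the p-value before and after adjustment.

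Deposited FPKM, with 1 added and log2 taken, entered limma 3.58.1 under R 4.3.3 (eBayes with an intensity trend, 2-sided, Benjamini-Hochberg over 10469 genes, threshold 0.05), without scaling between libraries. Exact permutation tests used scipy 1.17.1. The fit was checked on simulated data. Length and GC content are of the longest GENCODE 29 transcript (99.9% of tested genes), and their trend was fitted with mgcv 1.9.3. The members and lists were chosen with earlier results of these data known. Named were all 39 genes, PLOD2, HIF1A, CDKN1A, E2F1 and the 2 genes of smallest adjusted p in each of 5 lists, and 1 other gene of the rule is not reported here. Alternatives were a pseudocount of 0.1, no filter, a minimum of 5 FPKM, TPM, median-of-ratios and quantile scaling, robust estimation, a block for the replicate number, the GC and length trend or chromosome medians removed, and each library left out in turn.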

Additional observations from a re-analysis of the deposited data

How the results depend on the processing

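Across 16 alternatives, 11 of the 21 genes called higher and 2 of the 3 called lower (UBE2C and MYBL2) kept their calls, and 8 of the 15 not called were called in none. With the filter of 1 FPKM kept, the 39 genes held 16 to 23 rises and 3 or 4 falls. Over the 10469 tested genes, or slightly fewer, rises then ranged from 2307 to 3673 and falls from 1827 to 2741. With no filter the 39 held 18 rises and 3 falls, beside 4084 and 2895 among more genes. At a minimum of 5 FPKM they held 17 and 3, beside 1361 and 1649 among fewer genes. Not all of the 39 were tested there, TTK for example. The median log2 fold change of the 39 was 0.60 under TPM, where that of all tested genes went from 0.06 to 0.20. With 1 library left out the median of the 39 was 0.37 to 0.50. Their rises then ranged from 16 to 22, and those over all tested genes from 2307 to 3228. At that minimum the kinetochore list had 6 rises, and the MuvB, DREAM and E2F list had 1 rise and 2 falls. Fewer genes of these lists were tested there, so these counts cannot be set beside those of the planned fit. The MuvB, DREAM and E2F list had 4 rises after correction for GC and length. Its falls numbered 2 with no filter, under TPM and with chromosome medians removed. Condensin and cohesin had 5 rises and 0 falls with the trend removed, where all tested genes had 2602 and 2060. With 1 library left out, rises ranged from 7 to 14 (kinetochore list) and from 8 to 14 (condensin and cohesin), and falls of the MuvB, DREAM and E2F list from 2 to 4. The causes were not tested. Genes near 0 changed sign without being called: under TPM CDK1 (0.04), AURKA (0.04), NEK2 (0.11) and HMMR (0.12), under quantile normalization AURKA (0.03), under median-of-ratios scaling AURKB (-0.01), with chromosome medians removed AURKB (-0.10) and NEK2 (0.05), and with the trend removed MAD2L1 (-0.08). With 1 library left out, CDK1 ranged from -0.28 to 0.17, AURKB from -0.00 to 0.09, NEK2 from -0.08 to 0.05, NUSAP1 from -0.00 to 0.50 and HMMR from -0.27 to 0.29. With the replicate number as a block, 18 of the 39 were higher and 3 lower, beside 2984 and 2335 of all tested genes. HJURP gained a call (limma adjusted p = 0.0194), and CCNB1 (0.0597), FOXM1 (0.0552), TPX2 (0.0548) and CKAP2 (0.0723) were not called. Libraries of the same number had deviations that correlated at 0.01, 0.14 and -0.05, and not every library went best with its own number. With 3 libraries in each group, these values cannot settle whether the numbers pair the libraries. Read counts per library are lacking, so counting error was not modelled. In the authors' comparison the mean normalized count of the 39 genes ran from 1820 (CENPE) to 64471 (CDC20).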
